A study of Mus musculus with 6 samples.

Results

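Interstitial glia of the pineal gland were followed through 10 genes that are widely used to mark astrocytes, radial glia and related supporting cells: Gfap, Vim, Aqp4, Slc1a2, Slc1a3, Aldoc, Gja1, Glul, Clu and Fabp7. The genes were taken by name, and each was read from the array probe sets that the platform annotation gives to it alone. That left 35 probe sets, out of 34945 that name 1 gene and 45037 in all. A gene is described first by its probe set of highest mean over the 6 arrays, and its other probe sets are set beside it. The arrays held pineal RNA of newborn mice (postnatal day 0) of strain 129, either wildtype or homozygous knockout for Neurod1, a proneural bHLH factor that also acts in endocrine cells. Wildtype and knockout had 3 pools each, every pool of 3 glands on 1 array, and pools of the same number in both genotypes carry the same date in their labels. Housing was a cycle of 12 h light to 12 h dark, and glands were taken by day. The labels call the mutants both knockout and transgenic animals and do not give the part of the gene removed or the sex of the pups. The design text calls the pools of a genotype separate biological samplings. The question put to these arrays is how the newborn gland's transcripts differ when Neurod1 is missing, here among glial genes.

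The pineal gland consists mainly of pinealocytes, which make melatonin, with interstitial glia between them. Glia of this kind take up glutamate through the transporters of Slc1a2 and Slc1a3, turn it into glutamine with glutamine synthetase (Glul), couple to each other through connexin 43 (Gja1), and are held by filaments of vimentin (Vim) and, as they mature, of glial fibrillary acidic protein (Gfap). Fabp7, the brain lipid-binding protein, marks radial glia and immature astrocytes, and the water channel of Aqp4 marks mature astrocytes at vessels. Several of these genes are not restricted to glia: Vim and Gja1 are also expressed in fibroblasts and vessel cells, Clu in choroid plexus and ependyma, and Fabp7 in Schwann cell precursors. In RNA of whole glands, fewer cells of a type and less RNA per cell cannot be told apart.

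Neurod1 proteins bind DNA at E-boxes, which read CANNTG. Promoters of 4 glial genes are shown because the signals of Slc1a2, Glul and Vim did not overlap between genotypes and Fabp7 varied most between arrays. Each is the 250 bases before the start of the gene in RefSeq (GRCm38.p6), written 5′ to 3′ on the strand of the gene, which is the plus strand for all 4, with E-boxes in capitals. They lie at chr2:102706188-102706437 for Slc1a2, chr1:153899679-153899928 for Glul, chr2:13574061-13574310 for Vim and chr10:57784673-57784922 for Fabp7.
Slc1a2: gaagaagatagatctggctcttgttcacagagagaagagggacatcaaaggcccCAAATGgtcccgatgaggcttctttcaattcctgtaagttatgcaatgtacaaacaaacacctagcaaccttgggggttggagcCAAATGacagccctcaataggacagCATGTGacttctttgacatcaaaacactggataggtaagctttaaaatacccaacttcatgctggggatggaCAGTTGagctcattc
Glul: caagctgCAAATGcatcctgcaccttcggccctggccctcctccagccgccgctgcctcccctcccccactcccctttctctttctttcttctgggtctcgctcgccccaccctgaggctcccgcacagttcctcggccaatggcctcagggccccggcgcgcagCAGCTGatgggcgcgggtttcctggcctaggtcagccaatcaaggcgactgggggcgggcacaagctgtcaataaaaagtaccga
Vim: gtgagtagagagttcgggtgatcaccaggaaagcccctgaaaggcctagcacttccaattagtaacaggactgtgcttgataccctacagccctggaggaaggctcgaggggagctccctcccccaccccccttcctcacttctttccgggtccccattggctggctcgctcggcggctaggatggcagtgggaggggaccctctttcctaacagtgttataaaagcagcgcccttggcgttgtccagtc
Fabp7: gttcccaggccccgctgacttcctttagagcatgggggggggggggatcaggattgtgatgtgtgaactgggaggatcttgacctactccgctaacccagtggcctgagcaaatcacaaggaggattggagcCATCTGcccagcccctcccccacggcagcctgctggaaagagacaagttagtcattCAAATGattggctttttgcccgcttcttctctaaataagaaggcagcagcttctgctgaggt

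Slc1a2 had 4 E-boxes in this window, Glul 2, Fabp7 2 and Vim 0. The form CAGATG, read on both strands, occurred once, in Fabp7, and its other strand, CATCTG, stands 118 bases before the gene start. CAGCTG occurred once, in Glul, 85 bases before the start. Over the 9 promoters that RefSeq lists for 8 of the 10 genes, 5 held at least 1 CANNTG, against 66.2% of all 32851 promoters of the same length. CAGATG was found in 14.4% of all promoters and CAGCTG in 13.0%, and both overlap CANNTG. TTCNNNGAA, a form that STAT factors bind, was present in 2 of the 9 promoters (Slc1a3 and the second Aldoc promoter) and in 7.02% of all. TGGGAA, the core bound by RBPJ, the effector of Notch signalling, was present on 1 of the strands in 4 of the 9 (Fabp7, Gfap and both Aldoc promoters) and in 21.6% of all. The plain TATA box TATAAA, read on both strands, was present in Vim, 32 bases before the start, in Slc1a3 on the other strand, and in 12.4% of all. These matches describe letters in the window and are not evidence of binding.

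The target gene followed the labels: Neurod1 had signals of 9027, 9301 and 7519 in wildtype pools 1 to 3 and 390.2, 524 and 122 in knockout pools 1 to 3 (log2 difference −4.67, SE 0.45, limma adjusted p = 0.0362). Among 12797 genes tested it was the 1 gene called, 0.00781% of all, and 428 genes (3.34%) had an unadjusted p under 0.05, 1.98% of all with higher and 1.37% with lower values in knockout. With pool number as a block Neurod1 was still the 1 gene called, and 798 genes (6.24%) had an unadjusted p under 0.05, 3.08% higher and 3.16% lower. Array medians ran from 132 to 184. Knockout pool 1 stood apart in genes of cytosolic ribosomal proteins, whose median deviation over 44 genes was 1.16 (log2, from each gene's mean), against −0.53 to 0.01 in the other pools. Choroid plexus RNA also varied by pool: the transthyretin gene Ttr was dim in wildtype pool 1 (898) and knockout pool 3 (685) and bright, at 38903 to 87464, elsewhere.

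Vim, Glul, Gja1, Fabp7, Slc1a2 and Clu gave bright signals in every pool, whereas Gfap and Aqp4 were dim. Gja1 lay at the 99.9th percentile of its array or above on all 6 arrays, Glul at the 99.3rd or above and Vim at the 99.0th or above. Fabp7 lay between the 92.8th and 99.1st percentile, Slc1a2 between the 91.4th and 93.9th, and Slc1a3 between the 68.8th and 84.2nd. Clu lay between the 89.9th and 94.7th percentile, and Aldoc between the 43.0th and 78.0th. Gfap lay between the 42.9th and 63.9th percentile, and Aqp4 between the 10.4th and 55.1st. A probe set's brightness depends on its sequence as well as on its transcript, so these positions do not rank the genes by abundance. Aldh1l1, another general astrocyte marker, had signals of 63.9 to 154, below the array median on all 6 arrays. Of the 10 genes, 9 passed the filter on dim probe sets and were tested, and Aqp4 was not.

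None of the 9 tested glial genes passed the threshold in limma (adjusted p between 0.998 and 0.999), and 0 had an unadjusted p under 0.05, with or without the block. Mean log2 values, on which all counts of higher and lower means rest here, were higher in knockout for 5 genes (Glul, Gfap, Vim, Gja1 and Slc1a3) and lower for 4 (Slc1a2, Fabp7, Clu and Aldoc). For Fabp7 and Aldoc the mean of the linear signals ran the other way. The median log2 difference was 0.13 (−0.05 after quantile normalization, which also turned Gja1), beside 0.03 over all tested genes, of which 53.2% had higher mean log2 values in knockout. Signals of the genotypes did not overlap for Glul and Vim, higher in knockout, and Slc1a2, lower in knockout. Over all tested genes the groups did not overlap for 10.1%, 5.77% with higher and 4.33% with lower signals in knockout. Within pool numbers 1, 2 and 3 the median difference over the 9 genes was 0.71, 0.20 and −0.05, with 8, 6 and 3 genes higher in knockout. Permuting 3 against 3 pools exactly allows no p under 0.1 for a single gene, so no such test is given. Intervals printed with single genes are 95% intervals of the limma fit.

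**Figure D1:**
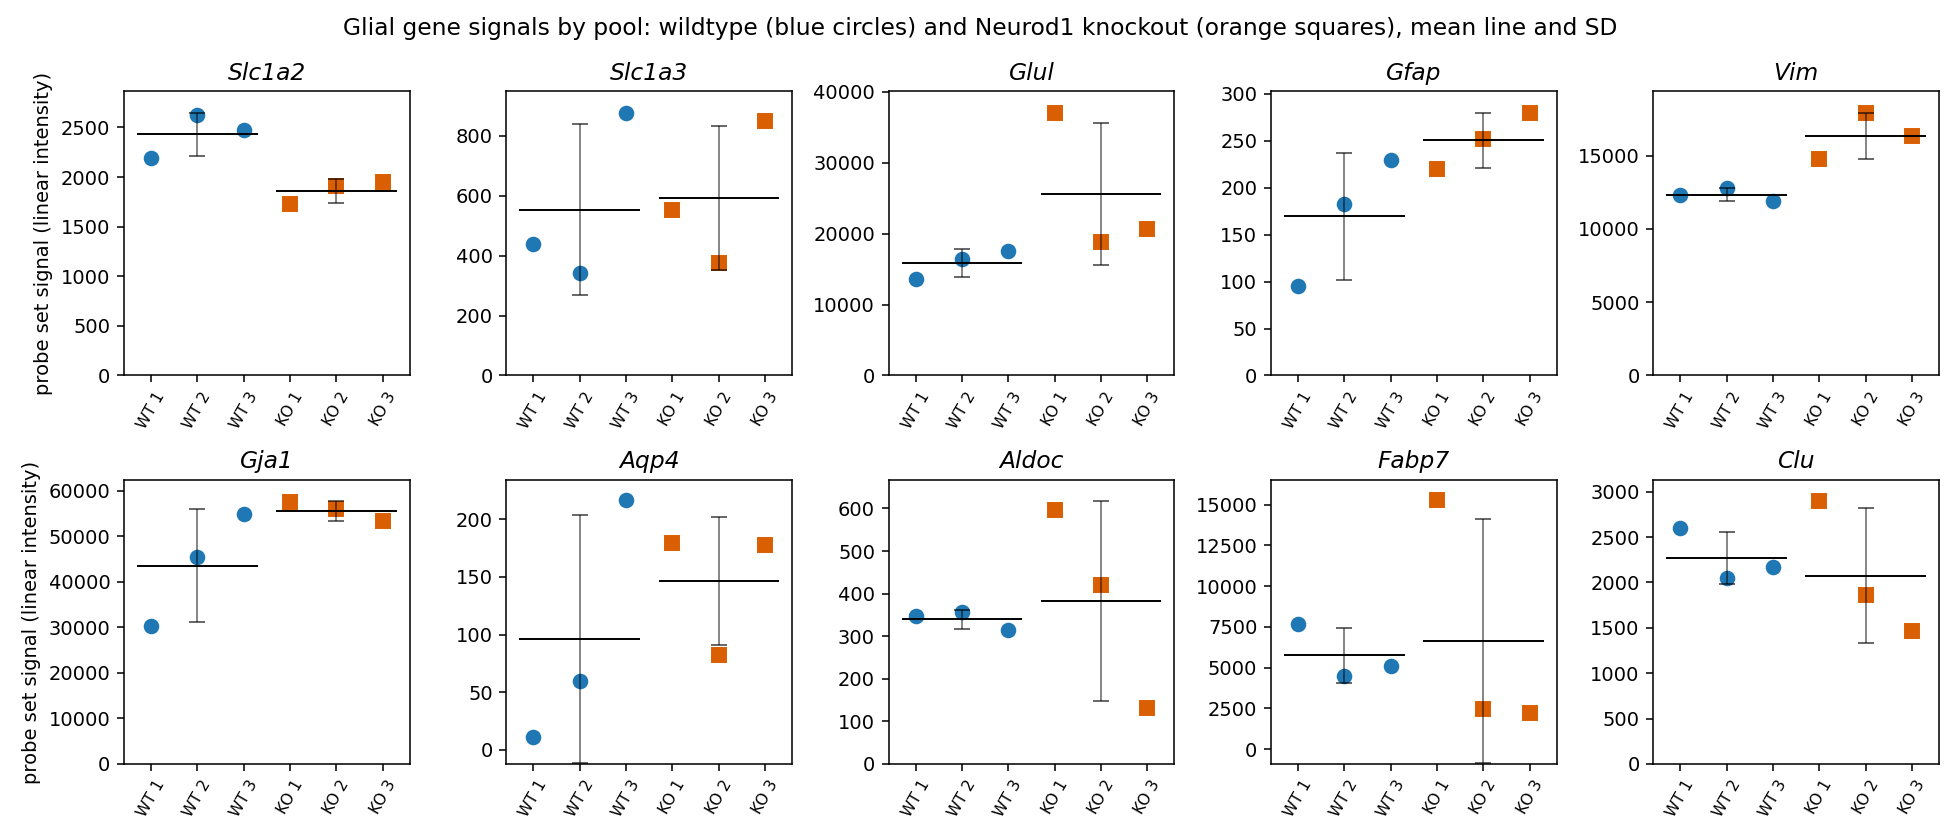
Signal of each of the 10 glial genes (linear intensity, vertical axis) in the 3 wildtype pools (WT, circles) and the 3 Neurod1 knockout pools (KO, squares), with the mean as a line and the SD as a bar. Glul and Vim are higher and Slc1a2 is lower in every knockout pool than in every wildtype pool, while knockout pool 1 alone reaches 15289 for Fabp7 and 37061 for Glul.

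Slc1a2 encodes GLT-1, the main glutamate transporter of mature astrocytes. Its signal was 2191, 2624.5 and 2474.5 in wildtype pools 1 to 3 and 1725, 1911 and 1947 in knockout pools 1 to 3. Every knockout pool lay below every wildtype pool, and the 3 knockout values sat close together. Group means were 2430.03 ± 220.1 and 1861 ± 119 (SD, n = 3), a ratio of wildtype over knockout of 1.31. The log2 difference was −0.38 (SE 0.27, 95% interval −0.99 to 0.24), with a limma adjusted p of 0.998. It was much the same within numbers 1, 2 and 3, at −0.34, −0.45 and −0.34. Leaving out any 1 pool kept it between −0.45 and −0.32. The other 4 Slc1a2 probe sets were below the filter, and among them 1 also separated the groups (58.2 to 190.1 in wildtype, 21.6 to 35.3 in knockout), whereas 3 had higher means in knockout, with log2 differences of 0.24 to 0.49.

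Neuronal markers had lower summed signals in every knockout pool than in every wildtype pool. Lower means were found for 9 of 12 tested, and their summed signal was 48928 to 53798.5 in wildtype and 39371 to 43939 in knockout. The median deviation over the list overlapped between genotypes, and the median difference within numbers 1, 2 and 3 was −0.05, −0.45 and −0.04. Pinealocyte markers had lower means for 10 of 12 tested. Their sums in pools 1 to 3 were 62346, 47945 and 38178 in wildtype and 47562, 31445 and 25178 in knockout, lower in knockout within each number, with median differences of −0.36, −0.59 and −0.74. Their part in the Slc1a2 values was not tested.

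Slc1a3 encodes GLAST, the glutamate transporter of radial glia and immature astrocytes. It had signals of 438, 342 and 878 in wildtype pools 1 to 3 and 551, 374 and 849 in knockout pools 1 to 3. On this brightest probe set both pools numbered 3 were high and both numbered 2 were low, in either genotype. Knockout minus wildtype came to 0.13 on the log2 scale (SE 0.40, 95% interval −0.79 to 1.04), and with the pool number as a block the SE was 0.22. Within numbers 1, 2 and 3 the difference was 0.31, 0.11 and −0.05. It turned to −0.16 without knockout pool 3 and −0.14 without wildtype pool 2. The 3 other probe sets of this gene that passed the filter had log2 differences of 0.13, 0.21 and 0.34 with overlapping groups. On these 3 the knockout pools ran otherwise, with 44.7, 90 and 96 in pool 3 and 271.6, 202.8 and 177 in pool 2. Wildtype pool 2 was still the lowest of its genotype, at 122.3, 83.6 and 35. Within number 2 their differences were 0.95, 0.98 and 1.55. The probe sets below the filter had log2 differences of 0.11 and 0.03, also with overlap.

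Glul encodes glutamine synthetase, which turns the glutamate taken up by glia into glutamine. Its signal was 13608, 16382 and 17526 in wildtype pools 1 to 3 and 37061, 18854 and 20707 in knockout pools 1 to 3. The groups did not overlap, but knockout pools 2 and 3 lay only slightly above wildtype pool 3, and knockout pool 1 stood far above the rest. Group means were 15839 ± 2015 and 25541 ± 10020.0 (SD, n = 3), a ratio of knockout over wildtype of 1.61. The log2 difference of 0.63 (SE 0.34, 95% interval −0.15 to 1.41, limma adjusted p = 0.998) was exceeded by 5.88% of all tested genes. It was 0.34 after quantile normalization. Within numbers 1, 2 and 3 it was 1.44, 0.20 and 0.24. Without knockout pool 1 it was 0.33. The second Glul probe set had a log2 difference of 0.61 with overlapping groups and its highest signal, 821, in knockout pool 2. The high ribosomal protein signals of knockout pool 1 stood beside the high Glul value, and their part in it was not tested.

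Gfap encodes the intermediate filament protein that astrocytes gain as they mature. The signal was 95.6, 183 and 230 in wildtype pools 1 to 3 and 220.2, 252 and 279 in knockout pools 1 to 3. Wildtype pool 1 was the lowest and knockout pool 3 the highest, and wildtype pool 3 overlapped knockout pool 1. The log2 difference was 0.53 (SE 0.33, 95% interval −0.22 to 1.28, limma adjusted p = 0.998). It was 0.95, 0.39 and 0.24 within numbers 1, 2 and 3, and 0.24 without wildtype pool 1. Because these signals are close to the array medians, the log2 scale with its offset understates any change: the ratio of knockout over wildtype means was 1.48. The other 2 Gfap probe sets were below the filter, with log2 differences of 0.28 and 0.38 and signals of 5.8 to 36.1 in wildtype and 6.8 to 103 in knockout.

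Vim encodes vimentin, the filament protein of radial glia and of many mesenchymal cells. Its signal was 12329, 12806 and 11889.9 in wildtype pools 1 to 3 and 14772, 17947 and 16327 in knockout pools 1 to 3. The wildtype values were nearly equal, and every knockout pool lay above them. Group means were 12342 ± 458 and 16348.5 ± 1588 (SD, n = 3), a ratio of 1.32. The log2 difference was 0.40 (SE 0.28, 95% interval −0.23 to 1.03, limma adjusted p = 0.998), and 0.26, 0.49 and 0.46 within numbers 1, 2 and 3. A second probe set also separated the groups, with 5873 to 6647 in wildtype, 7001 to 9205 in knockout and a log2 difference of 0.38. The remaining probe set had 2584 to 4782 and 2389 to 4780, a difference of −0.09, and averaging the 3 probe sets gave 0.23.

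Markers of mesenchymal and vessel cells also had higher means in knockout, though 0 passed the threshold in limma. Meningeal fibroblast markers had higher means in knockout for 11 of 12 tested, and their summed signal was 103469 to 121245 in wildtype and 131032 to 155768 in knockout, without overlap. The sum is carried by the brightest genes: the median deviation over the list overlapped, at −0.22 to 0.12 in wildtype and 0.05 to 0.19 in knockout. Of the 3 list genes with the smallest p, Pdgfra had 1857 to 1993 in wildtype and 1872 to 5620.1 in knockout, and Col1a2 had 22101 to 28014 and 30863 to 38407. Crabp2, the third, ran the other way, with 399 to 527 in wildtype and 847, 101 and 36.5 in knockout pools 1 to 3. For pericytes and smooth muscle the count was 7 of 7 (sums of 11358 to 14759 and 14404 to 22929), and for endothelium 8 of 9 (10238 to 13879 and 9567 to 17177). Macrophage and microglia markers had higher means for 9 of 10, with sums of 6755 to 7552 in wildtype and 7736 to 11344 in knockout. The part of these cells in the Vim values was not tested.

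Gja1 encodes connexin 43, the gap junction protein of astrocytes and of meningeal fibroblasts. It had signals of 30178, 45481 and 54844 in wildtype pools 1 to 3 and 57538, 55862 and 53277 in knockout pools 1 to 3. On this brightest probe set the knockout pools were nearly equal, while wildtype ran from a low pool 1 to a pool 3 within the knockout range. The log2 difference was 0.39 (SE 0.31, 95% interval −0.31 to 1.10), at a limma adjusted p of 0.998, but −0.05 after quantile normalization, and 0.15 without wildtype pool 1. Within numbers 1, 2 and 3 it was 0.93, 0.30 and −0.04. The other 4 Gja1 probe sets above the filter had log2 differences of 0.13 to 0.35, all with overlapping groups. A sixth, dim probe set had −0.91. The near equality of the knockout pools did not hold on all bright probe sets. SDs in wildtype and knockout were 2924 and 9037 on the next brightest and 2501 and 8518 on another. The remaining ones above the filter had 5750 and 4859, and 1019 and 335.

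Aqp4 encodes aquaporin 4, the water channel of astrocyte endfeet. All 3 of its probe sets were below the filter. The brightest had signals of 11.2, 60 and 217 in wildtype pools 1 to 3 and 180, 82.4 and 178 in knockout pools 1 to 3. The values of wildtype alone spanned the whole range, and the groups overlapped. The log2 differences of the 3 probe sets were 0.73, −0.17 and −0.67, so no direction is given for Aqp4.

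**Figure D2:**
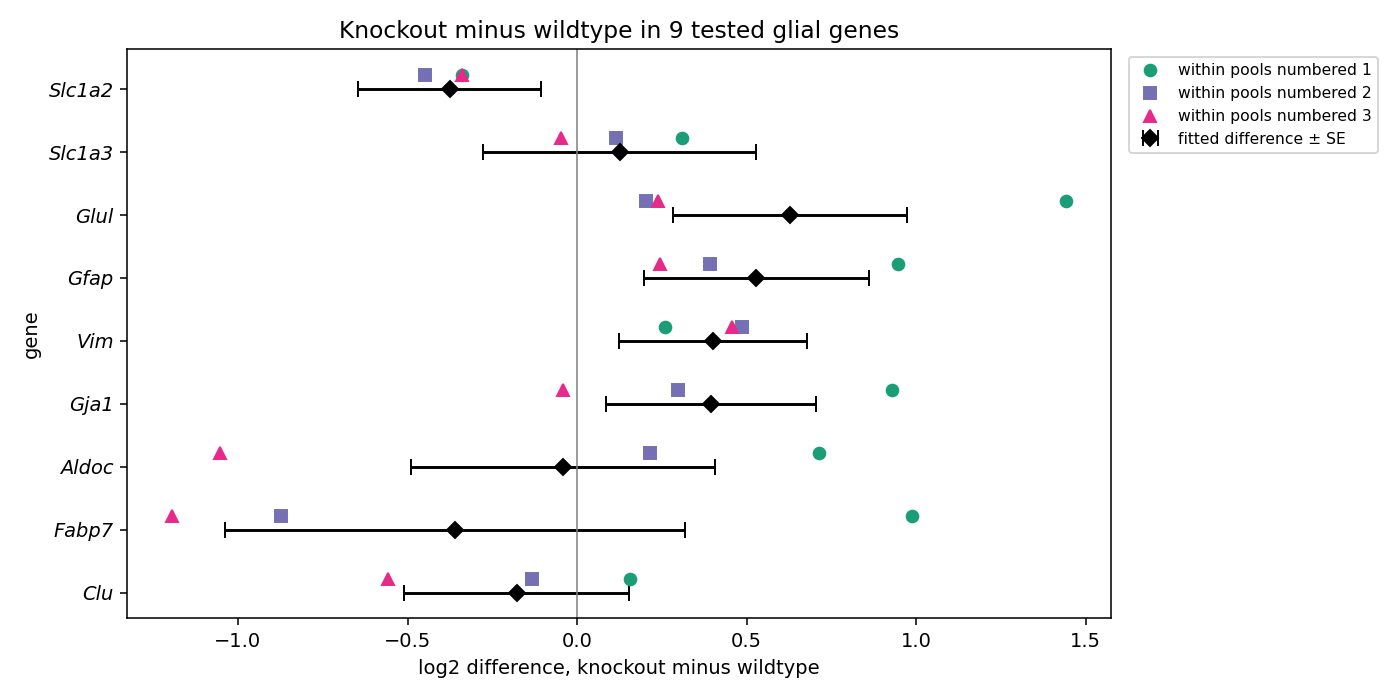
Log2 difference, knockout minus wildtype (horizontal axis), of the 9 tested glial genes, with the fitted value and its standard error (diamond and bar) and the differences within pools numbered 1, 2 and 3 (circle, square, triangle). Slc1a2 lies below 0 and Glul, Gfap and Vim lie above 0 within all 3 numbers, whereas Fabp7 runs from −1.19 to 0.99 and Gja1, above 0 in the fit, lies at −0.05 after quantile normalization.

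Aldoc encodes aldolase C, the glycolytic aldolase of astrocytes and Purkinje cells. The signal was 349, 356 and 314 in wildtype pools 1 to 3 and 597, 420 and 131 in knockout pools 1 to 3. Wildtype pools were nearly equal, and knockout pools lay on both sides of them. Knockout minus wildtype came to −0.04 on the log2 scale (SE 0.45, 95% interval −1.05 to 0.97). Within numbers 1, 2 and 3 it was 0.71, 0.21 and −1.05, and it turned to 0.51 without knockout pool 3. The other Aldoc probe set was below the filter, with 6 to 39.8 in wildtype, 8.1 to 21.6 in knockout and a log2 difference of −0.09.

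Fabp7 encodes the fatty acid-binding protein of radial glia. It had signals of 7682, 4496 and 5115 in wildtype pools 1 to 3 and 15289, 2436 and 2213 in knockout pools 1 to 3. Knockout pool 1 was the highest of all pools and the other knockout pools were the lowest, which made the range over the 6 arrays, 2.77 on the log2 scale, the widest of the 9 genes. The log2 difference was −0.36 (SE 0.68, 95% interval −1.89 to 1.17, limma adjusted p = 0.998). It was 0.99, −0.87 and −1.19 within numbers 1, 2 and 3, and −1.26 without knockout pool 1, but turned to 0.06 without knockout pool 2 and 0.12 without knockout pool 3. The linear mean was 5764 ± 1690 in wildtype and 6646 ± 7486 in knockout (SD, n = 3), higher in knockout through pool 1 alone. Only 1 probe set names this gene.

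Cytosolic ribosomal protein genes stood high in the knockout pool in which Fabp7 was high. Their summed signal was 1396030 in that pool and 396770 at the lowest in knockout, against 484234 to 598999 in wildtype. By the smallest root mean square gap of centred log2 values over the 6 arrays, out of 12788 other genes, the patterns most like that of Fabp7 were those of Ndufb3 (0.15), a subunit gene of respiratory complex I, Commd1 (0.16) and Cycs (0.18), the cytochrome c gene. Cycs had signals of 7904, 7014 and 7113 in wildtype pools 1 to 3 and 18849.9, 3113 and 2829.5 in knockout pools 1 to 3. Of the markers of Schwann cells and the oligodendrocyte lineage, 5 of 6 tested had higher means in knockout, with sums of 2973 to 3823 in wildtype and 2749 to 3480 in knockout. The part of these lists in the Fabp7 values was not tested.

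Clu encodes clusterin, a secreted chaperone also known as apolipoprotein J. Its signal was 2597, 2048 and 2169.5 in wildtype pools 1 to 3 and 2897, 1864 and 1463 in knockout pools 1 to 3. Both pools numbered 1 were high and knockout pool 3 was the lowest. Knockout minus wildtype came to −0.18 on the log2 scale (SE 0.33, 95% interval −0.93 to 0.57), and it turned to 0.04 without knockout pool 3. Within numbers 1, 2 and 3 it was 0.16, −0.13 and −0.56. The other 3 Clu probe sets had log2 differences of −0.33, −0.26 and −0.09, so that all 4 had lower means in knockout with overlapping groups. Choroid plexus and ependyma markers had higher means for 7 of 8 tested, and their sums, mostly Ttr, were 3271 to 75563 in wildtype and 3055 to 95835 in knockout. Wildtype pool 1, which was high in Clu, was low in Ttr. Knockout pool 1 was highest and knockout pool 3 lowest in both Ttr and the brightest Clu probe set. On the other 3 Clu probe sets wildtype pool 1 was highest, at 2648, 2253 and 973. Knockout pool 1 had 2456, 2174 and 581 there. Knockout pool 3 was lowest on the brighter of them, at 739 and 621, and wildtype pool 2 on the dimmest, at 435. The part of choroid plexus and ependyma in the Clu values was not tested.

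**Figure D3:**
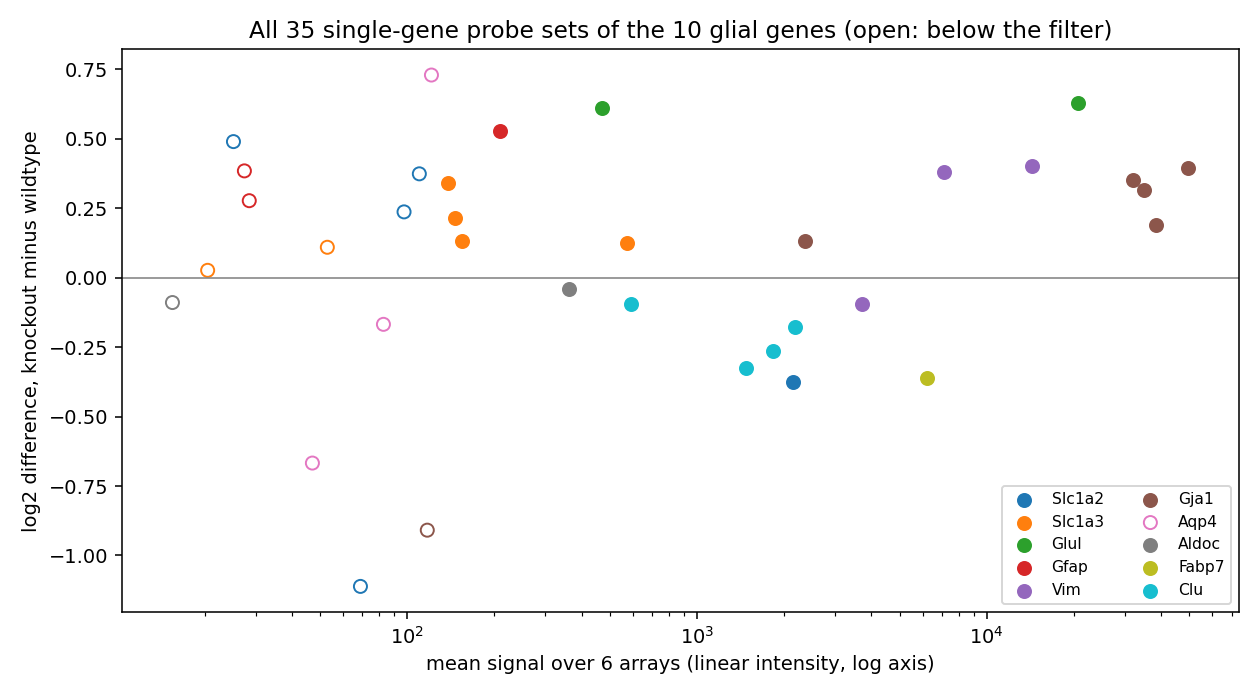
Log2 difference, knockout minus wildtype (vertical axis), of all 35 single-gene probe sets of the 10 glial genes against their mean signal over the 6 arrays (horizontal log axis), with open points for the 13 probe sets below the filter. The 4 Clu probe sets lie below 0, the 5 bright Gja1 probe sets above 0, and Vim on both sides. Quantile normalization, fitted for the brightest Gja1 probe set only, gave −0.05.

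Read from the brightest probe set of each, the glial genes did not vary together over the 6 pools. Knockout pool 1 held the highest signal for 5 of the 9 tested genes (Glul, Gja1, Aldoc, Fabp7 and Clu) and the lowest for Slc1a2. Knockout pool 3 held the lowest signal for Aldoc, Fabp7 and Clu and the highest for Gfap. Wildtype pool 1 was lowest for Glul, Gfap and Gja1. The range over the 6 arrays was narrow for Vim and Slc1a2, at 0.59 each on the log2 scale, and wide for Fabp7 (2.77), Aldoc (1.90) and Glul (1.44). For Aldoc the most similar patterns were those of Mrpl58 (gap 0.14), H2ac19 (0.14) and Pdcd2l (0.15), and for Glul those of St6galnac5 (0.08), Pdlim2 (0.08) and Gm3715 (0.10).

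**Figure D4:**
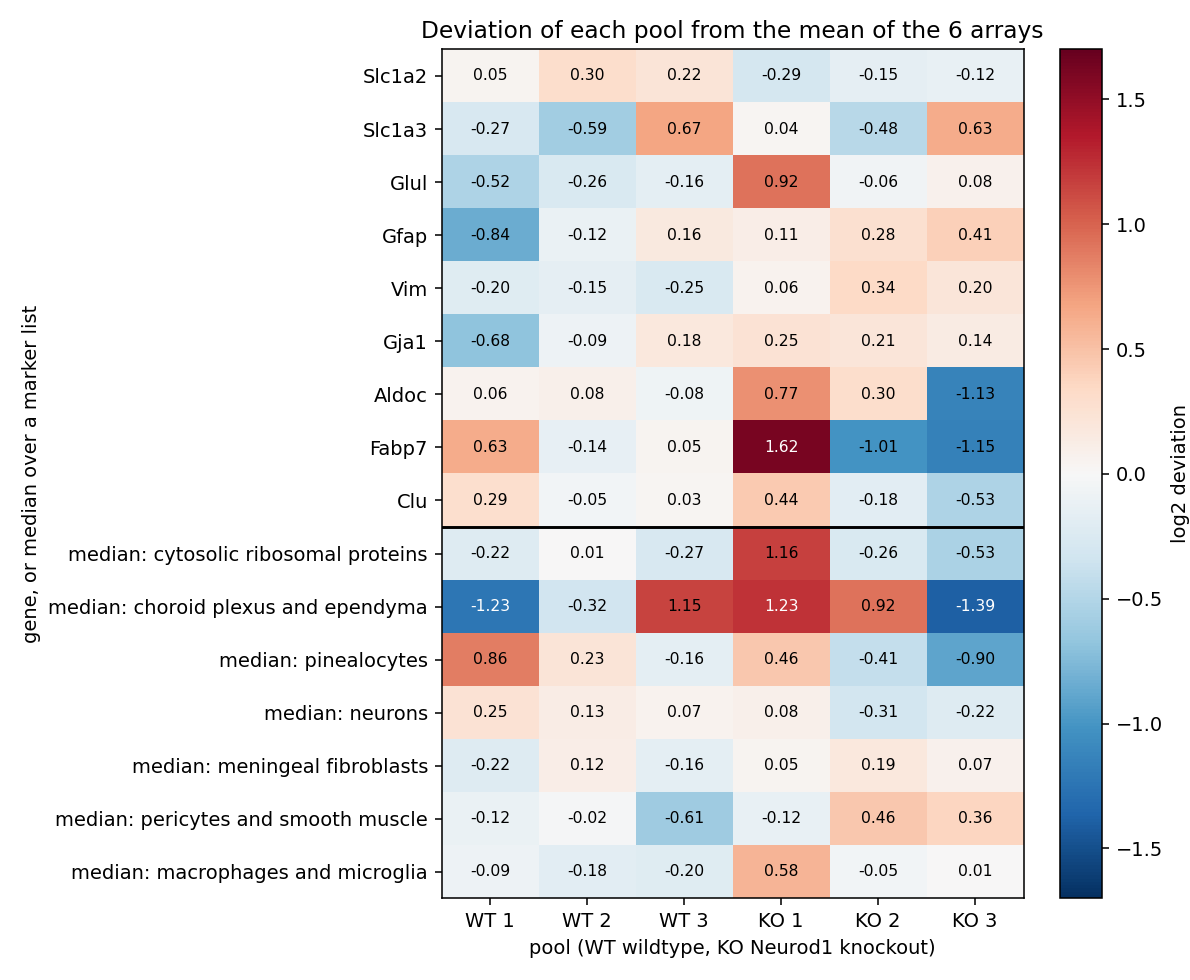
Log2 deviation of each pool from the gene's mean over all 6 pools (colour and printed value) for the 9 tested glial genes and, below the line, for the median of marker lists. Knockout pool 1 is high for Fabp7 (1.62), Glul (0.92) and the ribosomal protein median (1.16), and knockout pool 3 is low for Aldoc (−1.13) and Fabp7 (−1.15).

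Related genes of glutamate handling had higher means in knockout for 9 of 12 tested (median 0.23), and 0 passed the threshold, with 2 at an unadjusted p under 0.05 in limma. Over all tested genes, 3.34% had an unadjusted p under 0.05 in limma and 10.1% had groups that did not overlap. In this and the following lists, the genes named, S100b aside, were those with the smallest p. Gad1, the enzyme gene of GABA synthesis, had signals of 142, 130 and 96.7 in wildtype pools 1 to 3 and 341, 229 and 426 in knockout pools 1 to 3, without overlap (log2 difference 1.17, SE 0.31). Slc7a11, the cystine-glutamate exchanger gene, had 577 ± 157 and 232 ± 198 (SD, n = 3, log2 difference −1.45, SE 0.52), with overlapping groups. Its signal was 445.3, 536.6 and 750.5 in wildtype pools 1 to 3 and 60.5, 448.8 and 186.5 in knockout pools 1 to 3. Partners of gap junctions, water and potassium channels had higher means for 9 of 11 tested (median 0.16), with 0 at an unadjusted p under 0.05 in limma. Aqp1, the water channel gene of choroid plexus, had the smallest p among them (504 ± 60.6 and 729 ± 344, SD, n = 3).

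Intermediate filament and linker genes had higher means for 12 of 15 tested (median 0.27), and 0 had an unadjusted p under 0.05 in limma. Synm, whose product synemin joins filaments of vimentin and desmin, was higher in every knockout pool (164 to 236 in wildtype, 256 to 427 in knockout; log2 difference 0.62, SE 0.29). Nes, the nestin gene of progenitors, had 402 ± 128 and 573 ± 137 (SD, n = 3; 0.49, SE 0.31), with 0.94, 0.80 and −0.27 within the numbers. Lmna, a nuclear lamin gene, had 1895 ± 474 and 3053 ± 1075 (0.64, SE 0.38).

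Lipid carriers and extracellular chaperones had higher means for 15 of 16 tested (median 0.28), and 0 passed the threshold, with 1 at an unadjusted p under 0.05 in limma. That gene was Apod, which encodes apolipoprotein D, with 869, 668 and 852 in wildtype pools 1 to 3 and 1352, 1542 and 1151 in knockout pools 1 to 3 (log2 difference 0.73, SE 0.27). Sparcl1, a matrix protein gene of astrocytes and vessel cells, was also higher in every knockout pool (1535 to 2217 and 2220.4 to 3282; 0.63, SE 0.31). Both genes are expressed in fibroblasts or vessels as well, whose markers are given above.

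Aldolases and neighbouring glycolytic enzymes had higher means for 4 and lower means for 8 of 12 tested (median −0.09), with 1 at an unadjusted p under 0.05 in limma and 0 past the threshold. Pfkp, the platelet-type phosphofructokinase gene, had 445 ± 29.8 and 739 ± 56.7 (SD, n = 3; log2 difference 0.68, SE 0.24), without overlap. Ldhb, a lactate dehydrogenase gene, had 919 to 1009 and 1083 to 2300.0 (0.70, SE 0.33). Hk1, a hexokinase gene and the third by p, ran the other way, with 690 ± 305 and 491 ± 192 (−0.45, SE 0.38) and overlapping groups.

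Other astrocyte markers had higher means for 17 and lower means for 11 of 28 tested (median 0.06), and 0 had an unadjusted p under 0.05 in limma. Ndrg2, an astrocyte gene, had 699 ± 304 and 1278 ± 596 (SD, n = 3; log2 difference 0.84, SE 0.45), with 0.50, 1.06 and 0.95 within numbers 1, 2 and 3. Cspg5 and Bcan, proteoglycan genes, had differences of −0.57 (SE 0.32) and 0.93 (SE 0.52). S100b, another common astrocyte marker, had 513 to 764 in wildtype and 569.5 to 812 in knockout.

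Genes of radial glia and Mueller glia had higher means for 9 and lower means for 9 of 18 tested (median −0.13), with 2 at an unadjusted p under 0.05 in limma and 0 past the threshold. Lhx2, a homeobox gene of progenitors and glia, had 191 ± 49.4 and 84.4 ± 36.9 (SD, n = 3; log2 difference −0.92, SE 0.38), without overlap. Sfrp2, which encodes a secreted Wnt-binding protein, had 1478 ± 300.3 and 2584 ± 780 (0.77, SE 0.33), also without overlap. Pax6, a homeobox gene of radial glia and of the pineal itself, had 1330 ± 272 and 878 ± 235 (−0.59, SE 0.31), again without overlap.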

How the data were processed

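Gene expression was measured in 6 pools of whole pineal glands on Affymetrix mouse arrays, 1 array a pool. Per the labels' protocols, RNA was amplified once and labelled with biotin. The deposited values are probe set signals, a linear fluorescence intensity, and the submitters' processing notes name GCOS. How GCOS derived the signal is not stated in the labels. Trimmed means (2%) of the deposited intensity columns lay between 499.5 and 499.96, so the arrays had been scaled before deposit. Detection calls and scanner files were not analysed here.

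Values were used as log2(signal + 38.6), the offset being the 20th percentile of all values. Probe sets in the dimmest 40% by mean log2 were dropped, and the brightest remaining one stood for its gene, so that 12797 of 18193 named genes were tested. The genotypes were compared with limma 3.58.1 in R 4.3.3 (lmFit, eBayes with a trend, two-sided), and genes were called at a p under 0.05 after Benjamini-Hochberg adjustment. Every difference is knockout less wildtype, with the SE of the fit. The fit was tested on simulated data. Members of the glial set and all gene lists were chosen with earlier results of these data known. Named genes were the 10 glial genes, Neurod1, up to 3 genes of each further list with the smallest p, and the 3 genes nearest in pattern to each of the 3 tested glial genes of widest range. Aldh1l1, S100b and Ttr were added after their values were seen. The list of ribosomal protein genes was made from gene symbols. Promoters came from RefSeq (GRCm38.p6).

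Pools of the same number share a date in their labels, and over the tested genes the deviations of such pairs from their genotype's mean had correlations of 0.32 (number 1), 0.25 (number 2) and 0.36 (number 3). They were treated as paired in an alternative with the number as a block. Other alternatives changed the offset, normalization, filter, probe sets, variance trend and pools. The small number of arrays limits the precision.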

Additional observations from a re-analysis of the deposited data

How the results depend on the processing

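In the paired fit, with the pool number as a block, the count of called genes was 1 (Neurod1), the fit changed no other call, and unadjusted p-values under 0.05 rose from 428 to 798 genes. The count of called genes was 0 with no offset, with quantile normalization, and without both pools numbered 1, 2 or 3, where 420, 422, 723, 123 and 586 genes had an unadjusted p under 0.05 in limma. It was 0 to 1 when 1 pool was left out, being 0 without wildtype pool 1, 2 or 3 or knockout pool 1, with 215 to 1161 genes at an unadjusted p under 0.05. No filter left 718 such genes among 18193 tested. Over the 17 alternatives, 0 calls were made for any of the 9 tested glial genes. Of these 9, 4 (Gfap, Vim, Slc1a2 and Glul) kept their direction in all 17. Gja1 was −0.054 with quantile normalization. Without both pools numbered 3, Aldoc was 0.46, Clu 0.011 and Fabp7 0.058. Leaving out 1 pool gave −0.16 to 0.49 for Slc1a3, −0.44 to 0.51 for Aldoc, −0.44 to 0.040 for Clu and −1.26 to 0.12 for Fabp7. The median over the tested glial genes ranged from −0.01 to 0.40 over fits without 1 pool, and was −0.05 with quantile normalization and 0.26 with no filter, which added Aqp4. The causes of these turns were not tested. Dim signals limit Aqp4 and Gfap.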
